A study of Mus musculus with 5 samples.

Results

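The comparison described here is that of vemurafenib with vehicle in B9 cells, a mouse line derived from a cutaneous squamous cell carcinoma and labelled with the genotype HRAS-Q61L, an activating change in a RAS protein. All groups carried this genotype and were harvested after 17 h. The treated cultures received 1 µM vemurafenib (PLX4032), and the control received dimethyl sulfoxide (DMSO) alone, labelled 0.2%. Another group received 1 µM PLX7904, a RAF inhibitor designed to avoid ERK activation in such cells. Its 2 arrays entered the estimate of the spread and are given beside some values. B9 is a single line, so the results describe that line. The arrays compared were those labelled vemurafenib (2 arrays) and DMSO (1 array), 3 of the 5 arrays of the series. Whether the treated dishes held the same share of DMSO as the control is not stated, so compound and vehicle share cannot be told apart. Of 45101 probe sets, all 34958 with exactly 1 gene symbol were taken. They represent 18194 genes, each read from its brightest probe set, and 10853 genes passed a floor of 47.4 on the mean signal and were tested. Values are signals of the MAS5 algorithm, which gives 1 linear intensity per probe set.

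Vemurafenib binds the RAF kinases in their active conformation and blocks signalling in cells with mutant BRAF. In cells where RAS is active and BRAF is not mutant, binding to 1 partner of a RAF dimer can activate the other partner and raise MEK and ERK activity, which is known as paradoxical activation. Squamous skin tumours with mutant RAS are a known side effect of such drugs. ERK in turn induces immediate early transcription factors, ligands of its own upstream receptors, and phosphatases and adaptors that restrain it.

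The median signal of the 5 arrays lay between 44.1 and 51.9, and the number of arrays limits the precision of every value. The single DMSO array has no replicate, and the spread it is judged by comes from the treated arrays. The labels name the arrays of a group as biological replicates without describing separate cultures, so p-values here reflect only how far these arrays spread, which may be technical. Tests were those of limma on log2(signal + 3.34), with Benjamini-Hochberg adjustment over all genes tested and a threshold of 0.05. A fold on this scale understates the change of dim genes. Of the genes tested, 590 were higher (5.44%) and 565 lower (5.21%) with vemurafenib, 10.6% in all. At least 1.5-fold changes were found in 264 and 300 of them, at least 2-fold in 103 and 91, and at least 4-fold in 12 and 11. The median size of a called log2 difference was 0.58, and the median difference between the 2 vemurafenib arrays for the same genes was 0.08. Over all genes tested, the median difference between those 2 arrays was 0.11. Of the calls, 545 of the higher genes (92.4%) had both vemurafenib arrays above all 3 other arrays, which held for 19.2% of the genes tested. Likewise 538 of the lower genes (95.2%) had both below all 3, against 27.6% of the genes tested. The DMSO array lay below all 4 treated arrays in 68.5% of the higher calls (17.7% of the genes tested) and above all 4 in 66.6% of the lower calls (24.8%). Calls are selected for a difference from DMSO and a small spread. In all 590 higher and 565 lower calls, both vemurafenib arrays lay on the called side of DMSO. These shares and medians therefore describe the calls and do not test them.

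Differences depended on brightness. The median log2 difference was -0.05 over all genes tested, -0.18 for the dimmest 25% and 0.16 for the top 2% by brightness, where 59 genes were called higher and 2 lower. Centring every array on its own median moved the median of all genes tested from -0.05 to 0.13 and gave 1108 higher and 210 lower genes, 84.1% of calls higher against 51.1% as deposited. Small differences of whole lists are therefore read against this shift. With limma's variance prior not allowed to follow signal, 26 genes passed on the higher side and 17 on the lower, with 40 of them among the calls above. Among genes described below that kept their call in that fit were Il24, Nppb, Dusp5, Spry2, Errfi1, Mmp10, Lama3, Sostdc1, Cyp1b1 and Ccl2.

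**Figure D1:**
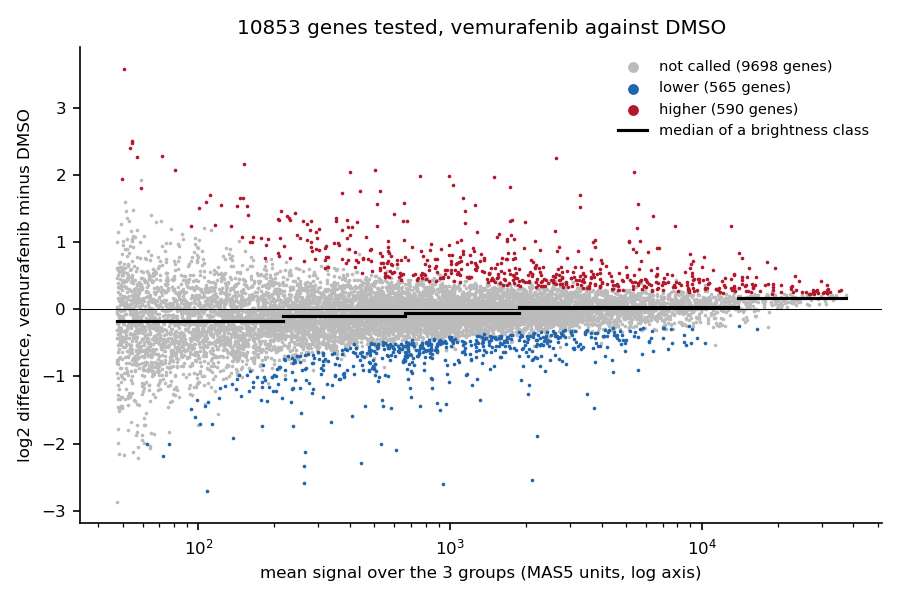
Mean signal of each of the 10853 genes tested (x axis, MAS5 units, log axis) against its log2 difference between vemurafenib and DMSO (y axis). Points are genes, red those called higher (590), blue those called lower (565) and grey those not called, and black bars mark the median of each brightness class, from -0.18 for the dimmest to 0.16 for the brightest.

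The cells carried the markers of their labelled origin. All 8 keratinocyte markers measured were bright, with Krt14, a basal keratin, at 20571 with DMSO and 22491 and 21791 with vemurafenib, and Trp63, the master regulator of stratified epithelia, at 4832 with DMSO and 5239 and 5629 with vemurafenib. The summed signal of the 8 was 80404 with DMSO and 82435 and 82470 with vemurafenib. Single markers moved both ways, with 5 differences above 0 and 3 below. Sfn was called higher (2697 with DMSO and 4274 and 4094 with vemurafenib), with PLX7904 at 2745 and 2376. Dsp was called lower (9923 with DMSO and 8203 and 8423 with vemurafenib). Of 7 fibroblast markers 1 passed the filter on signal, Pdgfra, at 83.3 with DMSO and 264 and 231 with vemurafenib, a call that averaging of its probe sets ended (log2 0.83, adjusted p = 0.227), and the collagen genes Col1a1, Col1a2 and Col3a1 were at 7.75, 9.09 and 24.8 with DMSO and at most 45.2 with vemurafenib. The summed signal of the fibroblast markers was 169.7 with DMSO and 417 and 398 with vemurafenib, and that of the 7 immune markers 830.1, 907 and 870.3. Of the immune markers, Cd14 was the brightest, at 562 with DMSO and 621 and 565 with vemurafenib, while Ptprc, which marks white blood cells, was at 25.4 with DMSO and 24.9 and 57.7 with vemurafenib. Endothelial, melanocyte and adipocyte markers had summed signals of at most 225, 332 and 135 on any array. Of these markers Pmel was called higher, at 12.4 with DMSO and 85.5 and 82.8 with vemurafenib. The PLX7904 arrays read 72.2 and 60.8 for Pmel. The single DMSO array thus stood apart from all treated arrays, at a signal below the filter level of 47.4. A smooth muscle marker, Smtn, was higher with vemurafenib (372 with DMSO and 597 and 655 with vemurafenib), whereas Des, which encodes desmin, was at 113 with DMSO and 24.4 and 41.6 with vemurafenib and did not pass (log2 difference -1.73, SE 0.76, adjusted p = 0.184), and Myh11, Cnn1 and Actg2 were at most 33.7 on any array. The summed smooth muscle markers were at 523 with DMSO and 673 and 753 with vemurafenib. The part of other cells in the results below was not tested.

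ERK is held in check by phosphatases and adaptors that it induces itself, and several of these genes rose. Of 15 tested members of a list of ERK feedback inhibitors, 5 rose, 33.3% against 5.44% of all genes tested, and limma called 0 lower (2 lower at an unadjusted p under 0.05). The list's median log2 difference was 0.25. Dusp5, a nuclear phosphatase that inactivates ERK, had a signal of 719.5 with DMSO and 2773 and 2893 with vemurafenib. The vemurafenib arrays lay far above the control, at 3.92-fold (95% interval 3.33 to 4.62, adjusted p = 5.30e-06), while the PLX7904 arrays read 957 and 897. Dusp6, the cytoplasmic ERK phosphatase, had 6050.3 with DMSO and 8619 and 8792 with vemurafenib, a rise of 1.44-fold (95% interval 1.28 to 1.61, adjusted p = 0.00197). Dusp14 rose 1.88-fold. Dusp4 (log2 difference 0.37, SE 0.13, adjusted p = 0.113), Dusp1 (log2 difference 0.24, SE 0.12, adjusted p = 0.247) and Dusp7 (-0.05) did not pass, nor did Dusp8, Dusp9, Dusp10 and Dusp16, whose differences ranged from -0.32 to 0.32.

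Among the adaptors, Spry2, which blocks signalling between receptors and RAS, read 571 with DMSO and 1729 and 1885 with vemurafenib, 3.15-fold (95% interval 2.63 to 3.77, adjusted p = 3.00e-05). Errfi1, also known as MIG6, binds and inhibits the EGF receptor kinase, and its signal was 3172 with DMSO and 9689 and 9204 with vemurafenib, 2.98-fold (95% interval 2.63 to 3.37, adjusted p = 5.30e-06). Both vemurafenib arrays of both genes exceeded every other array. Spry1 (0.16), Spred1 (-0.22) and Spred2 (-0.01) did not pass, so the rise was found in 1 of the 4 Sprouty and Spred genes tested.

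The Dusp5 promoter holds a pair of adjacent CArG boxes, the motif bound by serum response factor, and its sequence is shown because Dusp5 is the called feedback gene with that motif in the 250 bases before its start. Positions and sequences here and below are those of RefSeq promoters on GRCm38.p6, written 5′ to 3′ on the gene's strand with the motif in capitals.
Dusp5, chr19:53529048-53529097, + strand: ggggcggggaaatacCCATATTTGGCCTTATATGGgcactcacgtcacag
The boxes start 82 and 72 bases before the gene start. A CArG box was found in 1.38% of the 8852 tested genes with a promoter in the table, in 1.46% of the higher genes and 2.68% of the lower genes. Of 19 immediate early factors with a promoter there, 2 held it, Srf and Zfp36, and neither was called. Among the 6 called ones with a promoter, 0 held it.

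Of 25 immediate early factors tested, 8 rose and 1 fell (36% called, against 10.6% of all genes tested), with a list median of 0.31. Egr1, a zinc finger factor induced through serum response factor, read 348 with DMSO and 1327 and 1462 with vemurafenib, 3.97-fold (95% interval 3.09 to 5.11, adjusted p = 7.93e-05). Its relative Egr3 was dimmer, at 132 with DMSO and 334 and 339 with vemurafenib (2.52-fold). Fos, a subunit of the AP-1 factor, had 677 with DMSO and 1383 and 1161 with vemurafenib, a rise of 1.87-fold (95% interval 1.52 to 2.3, adjusted p = 0.00268), and the 2 vemurafenib arrays differed more here than for Egr1. Maff rose 1.5-fold, Klf6 1.48-fold and the very bright Ier3, an early response gene, 1.34-fold. Of the other AP-1 genes, Fosl1 read 1949.8 with DMSO and 3113 and 2611 with vemurafenib and rose 1.46-fold, and Junb rose 1.4-fold from a signal of 492, while Jun (0.36), Fosb (0.41) and Fosl2 (0.03) did not pass. Jund was the member that fell, from 3608 to 2821 and 2701 (1.31 times lower). The Jund call is fragile: it ended without vemurafenib replicate 1 (log2 -0.42, adjusted p = 0.0525) or replicate 2 (log2 -0.35, adjusted p = 0.102), and the sign turned on averaging its probe sets (log2 0.23, adjusted p = 0.734). Averaging over probe sets also ended the calls of Egr3 (log2 0.65, adjusted p = 0.515) and Klf6 (log2 0.27, adjusted p = 0.294), and leaving out vemurafenib replicate 1 those of Fosl1 (log2 0.42, adjusted p = 0.0688) and Junb (log2 0.42, adjusted p = 0.194). Myc (0.05), Atf3 (0.03) and Klf4 (0.07) lay near 0, and Nr4a1 (-0.43), Nr4a2 (-0.49) and Srf (-0.43) were below it without passing.

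Later ERK targets had the largest share of calls among the 46 lists. The lists were drawn up with earlier results of these data known, so this rank only describes them. Of 23 tested, 13 rose (56.5%, against 5.44% of all genes tested). Limma called 0 lower (1 at an unadjusted p under 0.05), and the median was 0.48. Leaving out vemurafenib replicate 1 or 2 gave 13 and 12 higher, and averaging over probe sets 10. Limma without the intensity trend of the variance prior, which called 26 genes higher in all, called 0 of this list (15 higher at an unadjusted p under 0.05). Plau, the secreted protease urokinase, read 755 with DMSO and 1705 and 1982 with vemurafenib, 2.43-fold (95% interval 1.89 to 3.12, adjusted p = 0.00107), and its receptor Plaur read 2678 with DMSO and 5753 and 5207 with vemurafenib, 2.04-fold (95% interval 1.77 to 2.36, adjusted p = 1.37e-04). Itga2, the collagen receptor subunit, rose 2.52-fold from 245. The ephrin receptor Epha2 rose 1.55-fold. Among the brightest members, Phlda1, a negative regulator of receptor signalling, read 7505 with DMSO and 11535 and 11478 with vemurafenib (1.53-fold), and Kcnn4, a calcium-activated potassium channel, read 7687 with DMSO and 11032 and 11209 with vemurafenib (1.45-fold). Trib1, a pseudokinase, rose 1.65-fold from 218, a call that ended without vemurafenib replicate 2 (log2 0.67, adjusted p = 0.0805). The PEA3 factors Etv4 (0.27) and Etv5 (-0.19) and the cyclin Ccnd1 (0.16), commonly read as ERK targets, did not pass.

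**Figure D2:**
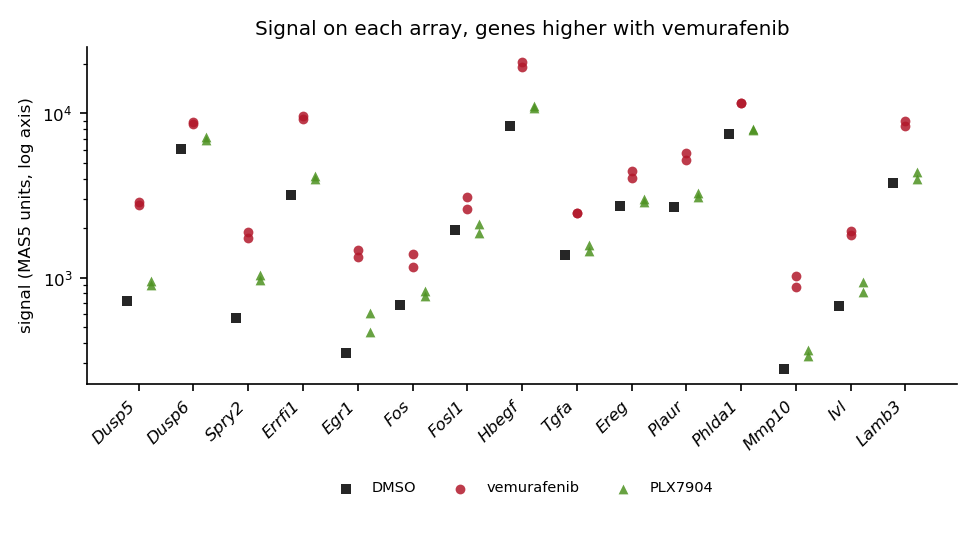
Signal (y axis, MAS5 units, log axis) of 15 genes called higher with vemurafenib on each array: black squares DMSO (1 array), red circles vemurafenib (2 arrays) and green triangles PLX7904 (2 arrays). Both red points lie above the black and green points for each gene shown, by a small margin for Dusp6 and a wide one for Dusp5.

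In the EGF family, which signals to RAS, genes of several ligands rose. Of 9 ligand and receptor genes tested 4 rose (44.4%, against 5.44% of all genes tested), all 4 ligands, at a list median of 0.56. Limma called 0 lower, also 0 at an unadjusted p under 0.05. Hbegf, the heparin-binding ligand, was the brightest, at 8321 with DMSO and 20418 and 19053 with vemurafenib, 2.37-fold (95% interval 2.13 to 2.64, adjusted p = 6.26e-06). Tgfa read 1376 with DMSO and 2457 and 2469 with vemurafenib (1.79-fold) and Ereg, which encodes epiregulin, 2739 with DMSO and 4428 and 4038 with vemurafenib (1.54-fold). Btc, which encodes betacellulin, rose 3.03-fold (95% interval 1.86 to 4.95, adjusted p = 0.011) but from a signal of 54.5 to 147 and 201, close to the filter on signal. Averaging all probe sets ended the calls of Tgfa (log2 0.44, adjusted p = 0.184) and Btc (log2 1.40, adjusted p = 0.0778), and Btc also failed without the filter on signal (log2 1.60, adjusted p = 0.0532). The neuregulin Nrg1 read 779 with DMSO and 1052 and 1099 with vemurafenib and did not pass (log2 difference 0.46, SE 0.14, adjusted p = 0.0664), nor did Nrg2 (log2 difference 0.56, SE 0.43, adjusted p = 0.451). The receptor genes Egfr (log2 difference -0.20, SE 0.16, adjusted p = 0.49), Erbb2 (log2 difference 0.24, SE 0.18, adjusted p = 0.435) and Erbb3 (log2 difference 0.21, SE 0.15, adjusted p = 0.412) did not pass either, with DMSO signals of 508, 211 and 388.

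Transcripts of the cascade itself were called about as often as those of all genes, 10.5% against 10.6% in either direction. Of 19 tested genes from the adaptors to the ERK-activated kinases, 2 rose (10.5%, against 5.44% of all genes), and 0 were called lower by limma (5 higher and 0 lower at an unadjusted p under 0.05). The 2 were Rras2, a RAS-related GTPase, at 5234 with DMSO and 7221 and 6995 with vemurafenib (1.36-fold), and Rasa1, a GTPase-activating protein that turns RAS off, at 3607 with DMSO and 4623 and 4938 with vemurafenib (1.32-fold), whose call ended without vemurafenib replicate 2 (log2 0.36, adjusted p = 0.0744). The Rras2 call ended without the filter on signal (log2 0.44, adjusted p = 0.0593). Braf, which vemurafenib was designed against, read 364 with DMSO and 372 and 324 with vemurafenib, with a 95% interval of the log2 difference from -0.47 to 0.33. Araf (-0.13), Nras (0.12), Map2k2 (0.12), Sos1 (-0.17), Ptpn11 (-0.06) and Shoc2 (0.15) did not pass, and the differences of the whole list lay between -0.47 and 0.44. Map2k1, which encodes MEK1, was nearest to the threshold among them, at 3131 with DMSO and 4009.9 and 3731 with vemurafenib (log2 difference 0.30, SE 0.10, adjusted p = 0.0719).

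**Figure D3:**
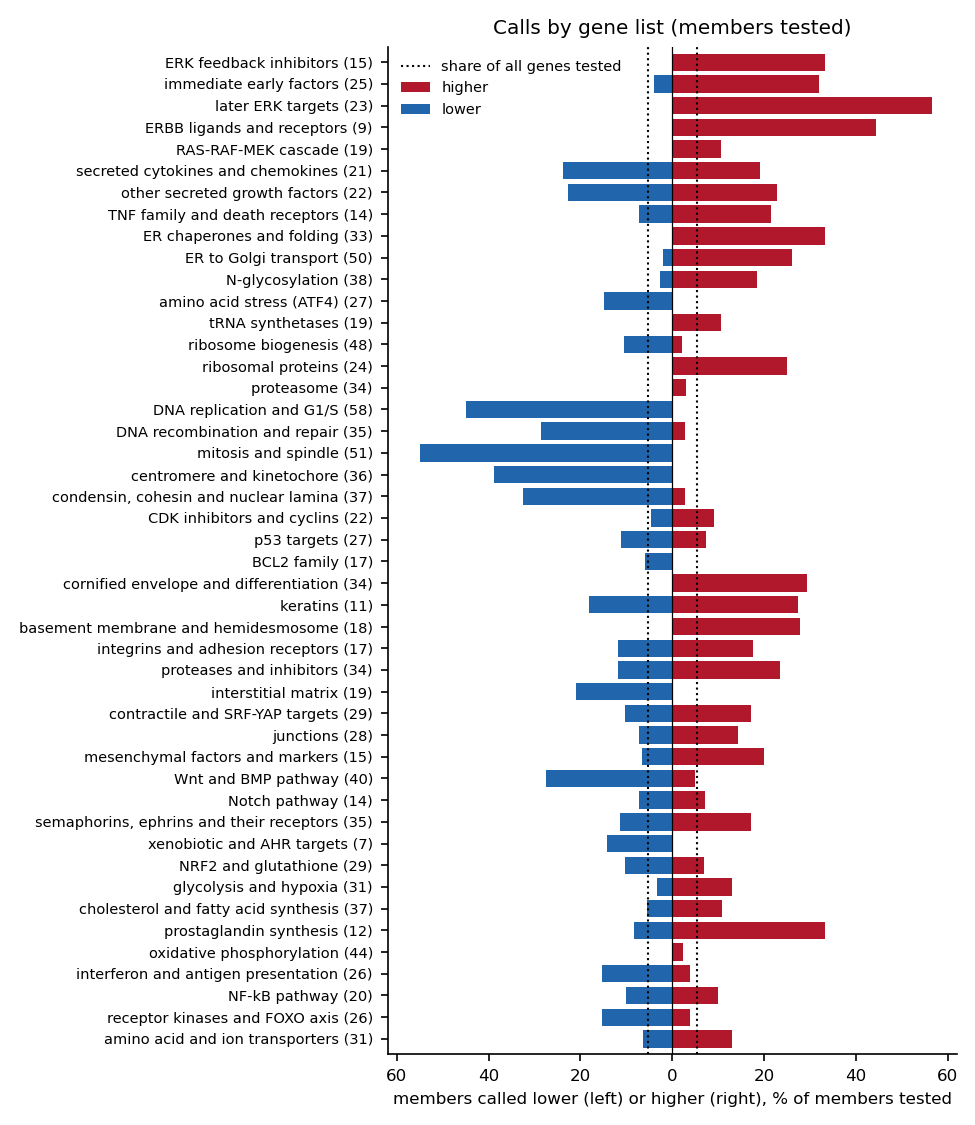
Share of tested members of 46 gene lists called higher (red, to the right) or lower (blue, to the left) with vemurafenib, in percent, with the number tested in parentheses. Dotted lines mark the shares over all genes tested, 5.44% higher and 5.21% lower, and the longest bars are those of later ERK targets (56.5% higher) and of mitosis and spindle genes (54.9% lower). The lists were chosen with earlier results of these data known.

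Lists of DNA replication, mitosis, the kinetochore and condensin are given next, and over all genes tested 5.21% were lower. Of 58 tested genes of DNA replication and G1/S, 26 fell (44.8%) and 56 lay below 0, with a median of -0.40. Of 51 genes of mitosis and spindle, 28 fell (54.9%) and all 51 lay below 0, at a median of -0.42. Limma called 0 higher in either list, also 0 at an unadjusted p under 0.05. In a bulk culture, fewer dividing cells and less RNA per cell cannot be told apart. Leaving out vemurafenib replicate 1 or 2 gave 16 and 21 lower replication genes and 17 and 22 lower mitosis genes. Median centring gave 8 and 7, with list medians of -0.22 and -0.24, and averaging over probe sets 11 and 12.

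Replication genes fell from licensing to synthesis. Uhrf1, which guides maintenance methylation to new DNA, read 3115 with DMSO and 1819 and 1849 with vemurafenib, 1.7 times lower (95% interval 1.47 to 1.96, adjusted p = 8.50e-04). Mcm2, a subunit of the helicase that unwinds origins, read 1934 with DMSO and 1141 and 1209 with vemurafenib (1.64 times lower), and Prim2, a primase subunit, 1316 with DMSO and 729 and 759.7 with vemurafenib (1.76 times lower). Dtl, which targets the licensing factor Cdt1 for degradation, was 1.67 times lower. Pcna, the sliding clamp, was on the other side of 0 (log2 difference 0.13, SE 0.07, adjusted p = 0.291). The Prim2 call ended once less specific probe sets were left out (log2 -0.21, adjusted p = 0.359), and the Dtl call on averaging over probe sets (log2 -0.66, adjusted p = 0.248). Of 35 genes of recombination and repair 10 fell and 1 rose (31.4% called, against 10.6% of all genes tested). Without vemurafenib replicate 1 or 2 there were 8 and 6 lower, with quantile normalization 6, without the filter on signal 4, and with median centring or averaging over probe sets 2. Brca2, a gene of homologous recombination, read 589 with DMSO and 331 and 337 with vemurafenib (1.76 times lower). The member that rose was Trex2, an exonuclease known from keratinocytes, at 236 with DMSO and 970.3 and 1032 with vemurafenib, 4.19-fold (95% interval 3.19 to 5.49, adjusted p = 9.64e-05).

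In mitosis, Kif11, the motor that separates spindle poles, read 1466 with DMSO and 674 and 826 with vemurafenib, 1.96 times lower (95% interval 1.59 to 2.42, adjusted p = 0.00192). Ckap2l, a spindle pole protein, read 1749 with DMSO and 912 and 1028 with vemurafenib (1.8 times lower), and Nusap1, which bundles spindle microtubules, 2512 with DMSO and 1546 and 1504 with vemurafenib (1.65 times lower). The common proliferation marker Mki67 read 2449 with DMSO and 1714 and 1662 with vemurafenib (1.45 times lower) and the cyclin Ccna2 3351 with DMSO and 2303 and 2174 with vemurafenib (1.5 times lower). Cit, a kinase of the cleavage furrow, was 1.99 times lower, from a DMSO signal of 449. The Mki67 call ended under median centring (log2 -0.36, adjusted p = 0.0662). On averaging over probe sets the calls of Kif11 (log2 -0.46, adjusted p = 0.211), Nusap1 (log2 -0.73, adjusted p = 0.2) and Cit (log2 -0.35, adjusted p = 0.508) ended. Cdk1 (-0.12), Aurka (-0.09) and Plk1 (-0.32), the kinases that drive entry into mitosis, did not pass, nor did the transcription factor gene Foxm1 (-0.23). Of 36 genes of the centromere and kinetochore 14 fell (38.9%, against 5.21% of all genes). The count was 9 without vemurafenib replicate 1, and median centring gave 5, averaging over probe sets 8 and no filter on signal 8. Cenpn, which binds the centromeric nucleosome, was the largest, at 1346 with DMSO and 672 and 596 with vemurafenib, 2.12 times lower (95% interval 1.75 to 2.56, adjusted p = 5.26e-04), and Cenpm, of the same inner complex, read 586 with DMSO and 324 and 268 with vemurafenib (1.98 times lower). Of 37 genes of condensin, cohesin and the lamina 12 fell and 1 rose (35.1% called, against 10.6% of all genes tested). There were 8 lower without vemurafenib replicate 1 and 8 without the filter on signal, averaging over probe sets gave 5, and median centring gave 3 lower and 2 higher with a median of -0.05. Ncaph, a condensin subunit, read 3609 with DMSO and 2029.7 and 2082 with vemurafenib (1.75 times lower), a call that ended once less specific probe sets were left out (log2 -0.34, adjusted p = 0.0893).

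Many promoters of genes expressed in G2 and mitosis carry a CCAAT box near the CHR element (TTTGAA), through which the DREAM and MMB complexes act. Of 41 mitosis and spindle genes with a promoter in the table, 39% held TTTGAA on either strand in the 250 bases before the start, against 12.3% of all genes tested, and 70.7% held CCAAT, against 40.6%. Among the called members of the list, 10 of 23 held TTTGAA (43.5%). Counting the 50 bases after the start as well raised the share with TTTGAA in the list to 65.9%, against 13.9% of all genes tested. E2F motifs (TTTCCCGC or TTTGGCGC, both strands) were found in 17% of 47 replication genes, against 3.07% of all genes. Such matches describe the letters of a window and do not show binding. Of 33 centromere and kinetochore genes with a promoter, 21.2% held TTTGAA in the same 250 bases. Among the called members of that list only 1 of 12 did (8.33%), namely Cenpn. The 2 sequences below belong to the called genes Kif11 and Cenpn, with CCAAT and TTTGAA, or their complements ATTGG and TTCAAA, in capitals.
Kif11, chr19:37376327-37376378, + strand: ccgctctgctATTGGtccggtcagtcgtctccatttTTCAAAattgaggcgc
Cenpn, chr8:116921712-116921739, + strand: ccgagcggccATTGGcggcTTCAAAagc
In Kif11 the motifs start 45 and 19 bases before the gene start, and in Cenpn 18 and 9 bases before it.

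Of 22 CDK inhibitors and cyclins, 2 rose and 1 fell, 13.6% called, against 10.6% of all genes tested. Cdkn1a, which encodes the CDK inhibitor p21, read 1137 with DMSO and 2892 and 2825 with vemurafenib, 2.51-fold (95% interval 2.02 to 3.12, adjusted p = 3.43e-04), with the PLX7904 arrays at 1108 and 1444. Ccng2, a cyclin linked to quiescence, read 1071 with DMSO and 2205 and 2305 with vemurafenib (2.1-fold). Rbl1, the RB relative p107, was 1.47 times lower, a call that averaging over probe sets ended (log2 -0.36, adjusted p = 0.678). Cdkn1b (-0.36), Cdkn2a (-0.12), Ccnd2 (-0.16) and Ccne1 (-0.26) did not pass. Of 27 p53 targets 2 rose and 3 fell (18.5% called, against 10.6% of all genes tested), at a median of -0.17: Mdm2 rose 1.75-fold and Sesn1 was 1.83 times lower, and both calls ended on averaging over probe sets (log2 0.56, adjusted p = 0.353 and log2 -1.04, adjusted p = 0.0751). The death receptor gene Fas fell from 164 to 34.9 and 14, signals near or below the filter level, 6.51 times lower (95% interval 3.01 to 14.1, adjusted p = 0.00807).

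The secretory pathway moved the other way. Of 33 tested genes of ER chaperones and folding 11 rose (33.3%, against 5.44% of all genes tested), 26 lay above 0 and the median was 0.24. Limma called 0 lower, also 0 at an unadjusted p under 0.05. The changes were small. Sdf2l1, an ER stress-induced cochaperone, read 1093 with DMSO and 1589 and 1702 with vemurafenib, 1.5-fold (95% interval 1.27 to 1.78, adjusted p = 0.00807). Manf, a secreted ER stress factor, read 7982 with DMSO and 11164 and 11300.3 with vemurafenib (1.41-fold), and Xbp1, the transcription factor of the unfolded protein response, 4459 with DMSO and 6067 and 6381 with vemurafenib (1.4-fold). Hspa5, the abundant chaperone BiP, read 18131 with DMSO and 22882 and 23919 with vemurafenib (1.29-fold). Once probe sets that match several transcripts were removed the Xbp1 call ended (log2 0.28, adjusted p = 0.53). Hsp90b1 (0.23), Calr (0.35) and Canx (0.07) did not pass, nor did the stress genes Herpud1 (0.20) and Ddit3 (0.24). Leaving out vemurafenib replicate 1 gave 6 higher and replicate 2 gave 9, and averaging over probe sets gave 4. With median centring 17 were higher.

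The ER stress response element (ERSE), CCAAT and CCACG separated by 9 bases, is the site through which ATF6 and XBP1 raise chaperone genes. It was found on either strand in 9 of the 29 ER chaperone genes with a promoter in the table (31%) and in 13 of all 8852 such genes (0.147%), where a gene with several promoters counts if any of them holds it. The 4 called members that hold it are shown, with the element in capitals from its first to its last base.
Hspa5, chr2:34772010-34772058, + strand: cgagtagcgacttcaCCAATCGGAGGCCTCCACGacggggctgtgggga
Dnajc3, chr14:118937812-118937860, + strand: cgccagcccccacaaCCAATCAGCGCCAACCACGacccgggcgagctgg
Pdia6, chr12:17266476-17266524, + strand: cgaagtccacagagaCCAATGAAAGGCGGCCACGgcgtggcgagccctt
Creld2, chr15:88819505-88819553, + strand: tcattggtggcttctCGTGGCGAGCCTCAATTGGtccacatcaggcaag
It starts 65 bases before the gene start in Hspa5, 105 in Dnajc3, 98 in Pdia6 and, on the opposite strand, 126 in Creld2. These genes rose 1.29-fold, 1.3-fold, 1.29-fold and 1.35-fold. These calls were near the threshold. They ended for Hspa5 after quantile normalization (log2 0.20, adjusted p = 0.0513), for Dnajc3 and Pdia6 without vemurafenib replicate 1 (log2 0.39, adjusted p = 0.0727 and log2 0.32, adjusted p = 0.122) and for Creld2 without replicate 2 (log2 0.42, adjusted p = 0.0565), and the average of the Dnajc3 probe sets had the opposite sign (log2 -0.04, adjusted p = 0.894). The other 5 chaperone genes with the element, Calr, Canx, Hsp90b1, Derl3 and Syvn1, were not called.

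Transport from the ER followed. Of 50 genes of ER to Golgi transport 13 rose and 1 fell, with 42 above 0 and a median of 0.17 (5.44% of all genes tested were higher). Leaving out vemurafenib replicate 1 or 2 gave 7 and 8 higher, averaging over probe sets 6, no filter on signal 7 and median centring 22. Sec24d, a cargo-binding coat subunit, read 774 with DMSO and 1475 and 1628 with vemurafenib, 2-fold (95% interval 1.56 to 2.55, adjusted p = 0.00376), while its relative Sec24b fell from 869 to 555 and 609 (1.49 times lower). The PLX7904 arrays read lower still for Sec24b (427 and 423), and its call ended without vemurafenib replicate 1 (log2 -0.51, adjusted p = 0.0862). Kdelr3, a receptor that returns chaperones to the ER, read 436 with DMSO and 837 and 819 with vemurafenib (1.89-fold). Copa, a subunit of the return coat, rose 1.4-fold, but the mean of its probe sets had the opposite sign (log2 -0.02, adjusted p = 0.965). In N-glycosylation 7 of 38 genes rose and 1 fell (21% called, against 10.6% of all genes tested), at a median of -0.01. Pgm3, in the synthesis of the sugar donor UDP-GlcNAc, read 245 with DMSO and 494 and 487 with vemurafenib (1.99-fold), and Man1a, a Golgi mannosidase, 1389.7 with DMSO and 2394 and 2344 with vemurafenib (1.7-fold). Of 27 ATF4 targets, by contrast, limma called 0 higher (2 at an unadjusted p under 0.05) and 4 lower (14.8%, against 5.21% of all genes). Slc7a11, the cystine transporter, read 1147 with DMSO and 416 and 427 with vemurafenib, 2.71 times lower (95% interval 1.93 to 3.8, adjusted p = 0.00303), a call that averaging over probe sets ended (adjusted p = 0.0503).

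**Figure D4:**
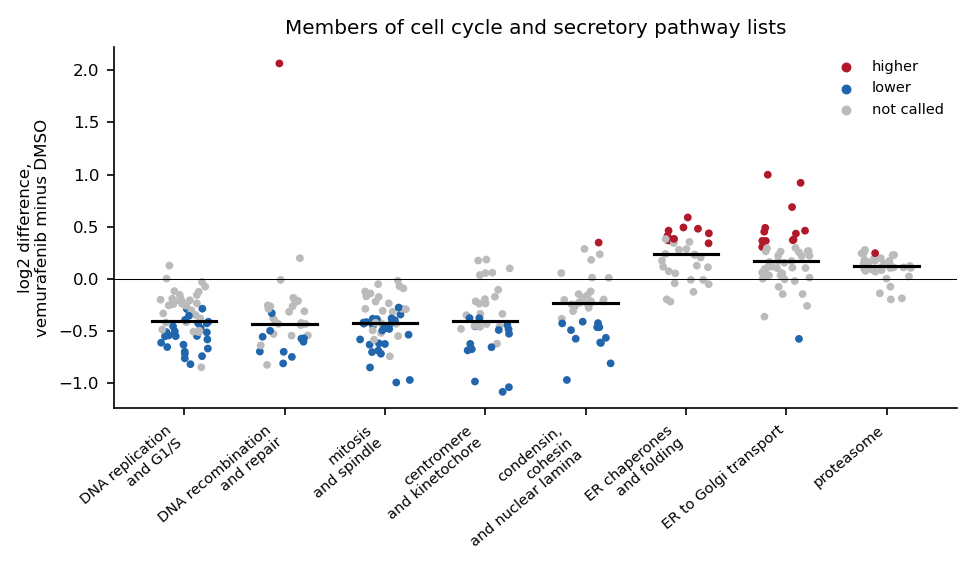
Log2 difference between vemurafenib and DMSO (y axis) of each tested member of 8 gene lists (x axis). Points are genes, red called higher, blue called lower and grey not called, and black bars are list medians, which lie at -0.42 for mitosis and spindle and 0.24 for ER chaperones and folding.

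Genes of the cornified envelope, the cross-linked shell of differentiated keratinocytes, rose in part. Of 34 tested 10 rose (29.4%, against 5.44% of all genes), and limma called 0 lower (1 at an unadjusted p under 0.05), with a median of 0.34. With less specific probe sets left out, 6 of 27 rose and the median was 0.14. Ivl, which encodes the scaffold protein involucrin, read 675 with DMSO and 1925 and 1823 with vemurafenib, 2.77-fold (95% interval 2.29 to 3.35, adjusted p = 9.22e-05). The small proline-rich precursor Sprr1a read 1399.7 with DMSO and 3275 and 3632 with vemurafenib (2.46-fold), the late envelope gene Lce3c 363 with DMSO and 849 and 873 with vemurafenib (2.36-fold) and the protease Klk8 929 with DMSO and 1730.3 and 1683 with vemurafenib (1.83-fold). Lor, the main late envelope protein loricrin (-0.05), Krt10, the keratin of the first layer above the basal one (-0.03), and Tgm1, the cross-linking enzyme (-0.35), did not pass, so the rise did not extend to all classes of the list. Of 11 keratins 3 rose and 2 fell (45% called, against 10.6% of all genes tested). Krt18, a simple epithelial keratin, read 14452 with DMSO and 23791 and 23145 with vemurafenib (1.62-fold), and Krt19 1473 with DMSO and 2386 and 2060.1 with vemurafenib (1.5-fold). Krt6b, a wound keratin, fell from 9395 to 6287 and 6991 (1.42 times lower), with PLX7904 at 6896 and 6543 and its call lost under median centring (log2 -0.32, adjusted p = 0.0966). The basal keratin Krt5 read 12250.2 with DMSO and 10583 and 10654 with vemurafenib and did not pass (log2 difference -0.21, SE 0.07, adjusted p = 0.0749).

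Genes for 2 chains of laminin-332, which anchors basal keratinocytes, rose. Of 18 tested genes of the basement membrane and hemidesmosome, 5 rose (27.8%, against 5.44% of all genes tested). Limma called 0 lower (3 at an unadjusted p under 0.05). Lama3 read 5285 with DMSO and 12717 and 12149 with vemurafenib, 2.35-fold (95% interval 2.1 to 2.63, adjusted p = 8.56e-06), and Lamb3 3752 with DMSO and 9008 and 8331 with vemurafenib, 2.31-fold (95% interval 2.01 to 2.65, adjusted p = 4.98e-05). Itga6, the laminin receptor subunit of the hemidesmosome, read 14174 with DMSO and 19946 and 19643 with vemurafenib (1.4-fold), whereas its partner Itgb4 did not pass (log2 difference 0.31, SE 0.10, adjusted p = 0.0781). Laminin genes of other trimers did not pass, with Lama5 at -0.42, Lamb1 at 0.26 and Lamc1 at 0.17. The Lama3 call ended on averaging its probe sets (log2 0.90, adjusted p = 0.0584).

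Proteases and their inhibitors moved both ways, 8 of 34 higher and 4 lower (35.3% called, against 10.6% of all genes tested). Mmp10, stromelysin-2, read 279 with DMSO and 881 and 1021 with vemurafenib, 3.38-fold (95% interval 2.68 to 4.26, adjusted p = 9.75e-05), and Mmp1b, a rodent relative of collagenase-1, 364 with DMSO and 1109 and 1078 with vemurafenib (2.98-fold). Timp3, a matrix-bound inhibitor of such proteases, fell from 3361 to 738 and 1119, 3.69 times lower (95% interval 2.76 to 4.93, adjusted p = 2.12e-04). The inhibitor Timp1 rose 1.31-fold, a call that ended without vemurafenib replicate 1 (log2 0.36, adjusted p = 0.0787).

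The FOS and JUN proteins bind DNA together as AP-1. The AP-1 site TGANTCA, which reads the same on both strands, was found within 250 bases before the start of 50 of 480 higher genes (10.4%), 27 of 447 lower genes (6.04%) and 5.68% of all genes tested. The site also lay before genes that were not called, among them Lor (48 bases before its start), Krtdap, Mmp12, Mmp13, Emp1 and Lif. The promoters of 5 called genes named above are shown.
Ivl, chr3:92573830-92573866, - strand: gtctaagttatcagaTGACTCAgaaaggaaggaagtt
Sprr1a, chr3:92485976-92486042, - strand: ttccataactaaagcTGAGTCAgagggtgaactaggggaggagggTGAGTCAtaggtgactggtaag
Mmp10, chr9:7502264-7502300, + strand: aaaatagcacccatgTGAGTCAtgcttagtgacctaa
Mmp1b, chr9:7388098-7388134, - strand: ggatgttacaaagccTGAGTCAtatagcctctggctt
Plaur, chr7:24462399-24462435, + strand: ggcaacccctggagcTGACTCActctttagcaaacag
Sprr1a holds a pair of sites, 146 and 116 bases before its start, and the sites of Ivl, Mmp10, Mmp1b and Plaur start 116, 63, 93 and 69 bases before theirs. The motif was absent from the searched windows of the 13 ERK feedback inhibitors with a promoter in the table, which says only that these letters are not there.

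Genes of the Wnt and BMP pathways fell more often than they rose. Of 40 tested genes 11 fell (5.21% of all genes tested were lower) and 2 rose, at a median of -0.17. Sostdc1, a secreted antagonist of both pathways, read 2951 with DMSO and 467 and 542 with vemurafenib, 5.83 times lower (95% interval 4.86 to 7.01, adjusted p = 4.13e-06), with PLX7904 at 2812 and 2999.7. The Id genes encode inhibitors of differentiation factors and are direct BMP targets: Id2 read 4924 with DMSO and 1999 and 2124 with vemurafenib (2.39 times lower), Id3 3072 with DMSO and 1882 and 1959 with vemurafenib (1.6 times lower) and Id1 8304 with DMSO and 5275 and 5734 with vemurafenib (1.51 times lower), while Id4 did not pass (0.09). Smad6, the intracellular BMP inhibitor and also a target, read 378 with DMSO and 161 and 167 with vemurafenib (2.28 times lower), and Smad7, the inhibitor of TGF-beta signals, did not pass (0.29). The ligand Bmp2 moved against them, at 1164 with DMSO and 2588 and 2419 with vemurafenib, 2.15-fold (95% interval 1.81 to 2.54, adjusted p = 2.01e-04). Bmp4 (log2 difference -0.84, SE 0.40, adjusted p = 0.223) and Bmp7 (log2 difference -0.87, SE 0.57, adjusted p = 0.379) did not pass. Of the Wnt side, Tcf7l2, a partner of beta-catenin, was 2.21 times lower at a low signal (157 with DMSO), a call that ended without vemurafenib replicate 1 (log2 -1.04, adjusted p = 0.0567) and after quantile normalization (log2 -0.99, adjusted p = 0.0605), and Axin2, the common Wnt readout, did not pass (log2 difference -0.58, SE 0.33, adjusted p = 0.296). Median centring left 7 lower and 5 higher in this list and turned its median to 0.01.

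**Figure D5:**
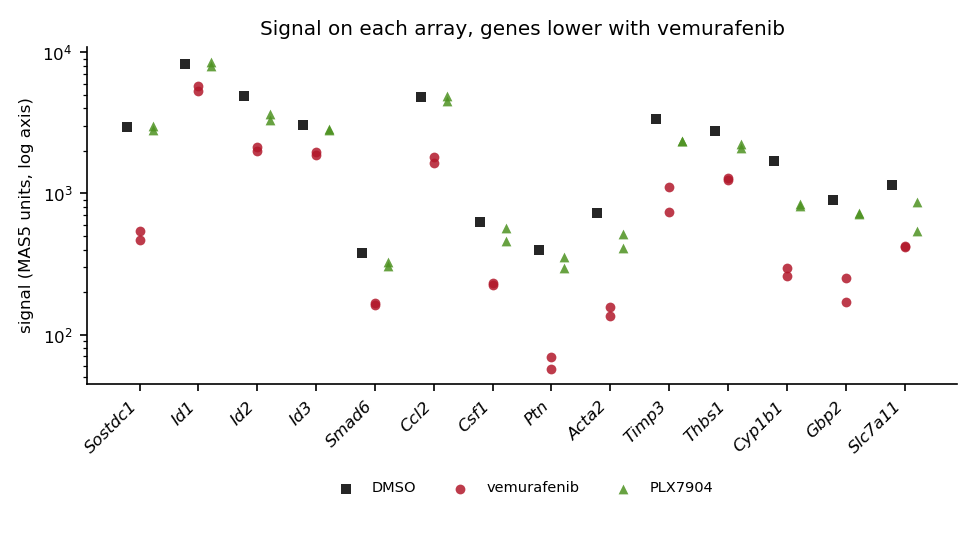
Signal (y axis, MAS5 units, log axis) of 14 genes called lower with vemurafenib on each array: black squares DMSO (1 array), red circles vemurafenib (2 arrays) and green triangles PLX7904 (2 arrays). Both red points lie below the other 3 for every gene shown, and relative to DMSO they lie lowest for Cyp1b1, Ptn and Sostdc1.

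Secreted signals changed in both directions. Of 21 cytokines and chemokines tested 4 rose and 5 fell (42.9% called, against 10.6% of all genes tested). Il24, of the interleukin-10 family, had the largest rise among called genes with a signal of at least 200, at 1138 with DMSO and 5797 and 5046 with vemurafenib, 4.74-fold (95% interval 3.93 to 5.72, adjusted p = 5.30e-06). Il1rn, the decoy ligand of the interleukin-1 receptor, read 365 with DMSO and 1027 and 940.4 with vemurafenib (2.68-fold), the subunit gene Il23a 404 with DMSO and 1063 and 955 with vemurafenib (2.48-fold) and the neutrophil chemokine Cxcl2 11126 with DMSO and 18942 and 18956 with vemurafenib (1.7-fold). Of those that fell, Ccl2, the monocyte chemokine, read 4787 with DMSO and 1653 and 1812 with vemurafenib, 2.76 times lower (95% interval 2.38 to 3.21, adjusted p = 1.89e-05). Csf1, the macrophage growth factor, read 627 with DMSO and 233 and 224 with vemurafenib (2.72 times lower), Ccl20 821 with DMSO and 366 and 435 with vemurafenib (2.05 times lower) and Il18 218 with DMSO and 45.2 and 67.6 with vemurafenib, 3.77 times lower (95% interval 2.24 to 6.33, adjusted p = 0.0062). The Csf1 call ended on averaging over probe sets (log2 -1.11, adjusted p = 0.165).

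Of 22 other growth factors 5 rose and 5 fell (45% called, against 10.6% of all genes tested). Without vemurafenib replicate 2 there were 5 and 3, while no filter on signal or median centring gave 5 and 2, and averaging over probe sets 3 and 1. Nppb encodes the natriuretic peptide BNP and read 2520.0 with DMSO and 10581 and 10318 with vemurafenib, 4.14-fold (95% interval 3.66 to 4.69, adjusted p = 1.44e-06). Fgf18 read 217 with DMSO and 776 and 682 with vemurafenib (3.32-fold), with PLX7904 at 165 and 176. Angptl4, a regulator of lipoprotein lipase, read 145 with DMSO and 416 and 378 with vemurafenib (2.69-fold), and Vegfa, the angiogenic factor, 946 with DMSO and 1411 and 1601 with vemurafenib (1.59-fold). Ptn, the heparin-binding factor pleiotrophin, fell from 396 to 57.3 and 69.8, 6 times lower (95% interval 4.16 to 8.67, adjusted p = 1.38e-04). Gas6, the ligand of the TAM receptors, read 892 with DMSO and 465 and 536 with vemurafenib (1.78 times lower). On averaging over probe sets the calls of Angptl4 (log2 0.94, adjusted p = 0.189) and Gas6 (log2 -1.55, adjusted p = 0.0599) ended. Of the TNF family, Tnfsf9 read 792 with DMSO and 1468 and 1436 with vemurafenib (1.83-fold) and the receptor Tnfrsf12a, also a later ERK target, rose 1.4-fold.

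Prostaglandin E2 is made from arachidonic acid by cyclooxygenase and a terminal synthase. Of 12 genes of its synthesis and handling 4 rose and 1 fell (41.7% called, against 10.6% of all genes tested), at a median of 0.68. The inducible cyclooxygenase Ptgs2 read 8285 with DMSO and 13070.5 and 12678 with vemurafenib (1.55-fold), and the synthase Ptges 4458 with DMSO and 7427 and 7254 with vemurafenib, 1.65-fold (95% interval 1.46 to 1.85, adjusted p = 3.43e-04). The transporter Slco2a1, which takes prostaglandins up, read 1327 with DMSO and 2348 and 2419 with vemurafenib (1.79-fold), a call that averaging over probe sets ended (log2 0.57, adjusted p = 0.114), and the reductase Akr1b8 4064 with DMSO and 7536 and 7545 with vemurafenib (1.85-fold). The receptor Ptger4 was 1.67 times lower, from 395, and lost its call after quantile normalization (log2 -0.63, adjusted p = 0.0503). Pla2g4a, which releases arachidonic acid, did not pass (-0.17).

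Among semaphorins, ephrins and netrins, guidance cues that also act in epithelia, 6 of 35 rose and 4 fell. The share called was 28.6%, against 10.6% of all genes tested. Sema6d read 211 with DMSO and 646 and 802 with vemurafenib (3.38-fold) and Sema7a 138 with DMSO and 386 and 328 with vemurafenib (2.54-fold). Epha7, an ephrin receptor, fell from 417 to 68.7 and 92.9, 5.05 times lower (95% interval 3.35 to 7.62, adjusted p = 5.26e-04), opposite to Epha2. Netrin genes fell, Ntn1 from 415 to 159 and 222 (2.19 times lower) and Ntn4 from 633 to 313 and 352 (1.9 times lower). Averaging over probe sets ended the calls of Sema6d (log2 0.69, adjusted p = 0.297), Sema7a (log2 0.99, adjusted p = 0.241), Epha7 (log2 -1.52, adjusted p = 0.0512), Ntn1 (log2 -0.14, adjusted p = 0.854) and Ntn4 (log2 -0.69, adjusted p = 0.358).

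Contractile and matrix genes gave a mixed picture. Of 29 contractile genes and targets of SRF and YAP, 5 rose and 3 fell (27.6% called, against 10.6% of all genes tested). Acta2, smooth muscle actin, read 722 with DMSO and 156 and 135 with vemurafenib, 4.88 times lower (95% interval 3.65 to 6.55, adjusted p = 8.25e-05), while the tropomyosin gene Tpm2 rose 1.35-fold. Ccn2, a YAP target, read 2424 with DMSO and 1569 and 1668 with vemurafenib (1.5 times lower). On averaging over probe sets the calls of Acta2 (log2 -0.81, adjusted p = 0.351) and Tpm2 (log2 0.31, adjusted p = 0.0914) ended. Of 19 interstitial matrix genes 4 fell (21%, against 5.21% of all genes tested), and limma called 0 higher (1 at an unadjusted p under 0.05). Thbs1, thrombospondin-1, read 2775 with DMSO and 1253 and 1282 with vemurafenib (2.19 times lower), and Col12a1, a fibril-associated collagen, 379 with DMSO and 107 and 116 with vemurafenib (3.33 times lower), a call that averaging over probe sets ended (log2 -0.40, adjusted p = 0.638). Of 15 mesenchymal genes 3 rose and 1, Fn1, fell (26.7% called, against 10.6% of all genes tested), at a median of 0.03. Vim, the intermediate filament vimentin, rose 1.53-fold to 24943 and 23447, and the epithelial adhesion gene Epcam, in the junction list, rose 1.51-fold from 8909. Itgb5, a vitronectin receptor subunit, was 2.1 times lower, and Alcam, an adhesion molecule, rose 2.21-fold.

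Large changes of single genes were found in further lists. Cyp1b1, a cytochrome P450 induced by the aryl hydrocarbon receptor, had the largest fall among called genes with a signal of at least 200, at 1709 with DMSO and 298 and 262 with vemurafenib, 6.06 times lower (95% interval 4.92 to 7.46, adjusted p = 5.30e-06). The PLX7904 arrays read 821 and 838, between the other groups, and 6 further members of its list of 7 did not pass, among them Tiparp (0.29) and Ahr (0.03). Averaging all Cyp1b1 probe sets ended its call (log2 -1.29, adjusted p = 0.117). Of 26 genes of interferon and antigen presentation 1 rose and 4 fell (19.2% called, against 10.6% of all genes tested). In this list 19 lay below 0 and the median was -0.30. Median centring left 2 higher and 1 lower there, at a median of -0.12. Gbp2, an interferon-induced GTPase, fell from 895 to 170.0 and 253, 4.26 times lower (95% interval 3.1 to 5.85, adjusted p = 2.00e-04). Ifi202b, of the p200 DNA sensor family, moved the other way at 1867 with DMSO and 6169 and 5949.5 with vemurafenib, 3.24-fold (95% interval 2.82 to 3.72, adjusted p = 5.30e-06), as did its relative Ifi209 at 911 with DMSO and 3292 and 3148 with vemurafenib (3.52-fold), while Ifi203 (-0.10) and Ifi204 (-0.39) did not pass. Genes of the p200 family are closely related in sequence, so their probe sets may share signal. The fatty acid elongase Elovl4 read 1123 with DMSO and 2589 and 2319 with vemurafenib (2.18-fold) and the hypoxia-regulated gene Ndrg1 2130.0 with DMSO and 3780.2 and 3963 with vemurafenib (1.82-fold). Mgst1, a microsomal glutathione transferase, was 1.89 times lower, and the taurine transporter gene Slc6a6 2.09 times lower, and both lost their calls on averaging over probe sets (log2 -0.20, adjusted p = 0.871 and log2 -0.40, adjusted p = 0.572).

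Of the remaining large changes at a signal of at least 200, taken over both groups, Evi2a, a membrane protein gene, read 182 with DMSO and 806 and 726 with vemurafenib (4.14-fold), Sdcbp2, a syndecan-binding protein gene, 478 with DMSO and 1801 and 1987 with vemurafenib (3.94-fold) and Nipal1, a magnesium transporter gene, 533 with DMSO and 1900.1 and 1945 with vemurafenib (3.59-fold). On the lower side Tppp3 read 402 with DMSO and 89 and 89.6 with vemurafenib (4.37 times lower), Ch25h, which makes 25-hydroxycholesterol, 769 with DMSO and 175 and 205 with vemurafenib (4.01 times lower), and Lcn2, an iron-binding secreted protein gene, 571 with DMSO and 187 and 189 with vemurafenib (3 times lower). Ssbp2 (2.82 times lower), Fgf13 (2.78 times lower), Efemp1 (3.21 times lower) and Lgi2 (2.93 times lower) completed the group. The calls of Evi2a (log2 1.10, adjusted p = 0.383), Ssbp2 (log2 -1.51, adjusted p = 0.0789), Fgf13 (log2 -1.06, adjusted p = 0.0599) and Lgi2 (log2 -0.91, adjusted p = 0.0575) ended on averaging over probe sets.

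Lists of very bright housekeeping genes had few or small changes. Of 24 ribosomal protein genes, with a median signal of 27110, 6 rose (25%, against 5.44% of all genes tested) at a median of 0.20. Quantile normalization ended these calls and gave a median of -0.0034. Oxidative phosphorylation (1 of 44 higher, median 0.08) turned to -0.05 after the same normalization, and the proteasome (1 of 34, 0.12) to 0.02. None of the 24 ribosomal genes had both vemurafenib arrays above all 3 other arrays, whereas 12 of 34 proteasome and 19 of 33 ER chaperone genes did. Over all genes tested the share was 19.2%. Ribosome biogenesis had 1 of 48 higher and 5 lower (12.5% called, against 10.6% of all genes tested). In the BCL2 family, 1 of 17 was lower (5.88%, against 5.21%).

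Other probe sets of the same gene gave a check on the choice of the brightest. They were read on the same arrays, so they do not check the single DMSO array. Of the 590 higher genes, 323 had another tested probe set. Of these 594 probe sets 450 (75.8%) had the same sign, 165 (27.8%) were called higher and 5 called lower. For the lower genes, 475 of 535 other probe sets (88.8%) had the same sign, 108 (20.2%) were called lower and 1 called higher. Over all genes tested, 42.2% of the differences lay above 0, so agreement in sign is commoner by default on the lower side. When every probe set was fitted on its own, 3.74% were called higher and 3.41% lower. The other probe sets were dimmer, with a median signal of 546 against 2070 for those used of higher genes and 288 against 884 for lower genes. Opposite calls concerned Sub1, Hspa4, Cast, Serpinb5 and Pafah1b1 among higher genes, and Marcks among lower genes.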

How the data were processed

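RNA of the 5 samples was read on Affymetrix mouse arrays. The deposited values are linear intensities that the authors computed with MAS5, per the submitters' processing notes, which as given here name no version. Their trimmed means lay near 499.8 on every array, as the files show. Probe sets were named from the platform annotation: 932 had several symbols and 9160 had none, and both were left out, as were 51 of 64 control probe sets. The other 13 controls had 1 symbol and stayed in by the rule, and controls are the brightest probe sets of Actb and Gapdh. Of those with 1 symbol, 34754 matched RefSeq by Entrez identifier and 0 symbols changed.

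The brightest probe set represented each gene. Values were taken as log2(signal + 3.34), and limma 3.58.1 in R 4.3.3 was fitted to all 5 arrays (eBayes with an intensity trend, 2 residual degrees of freedom and a median prior of 8.28). The fit was tested on simulated data. Figures and promoter searches used Python 3.11.15 and matplotlib 3.10.9.

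Genes were named by rule: the 15 largest and 15 smallest called differences at a signal of at least 200 (unnamed gene models passed over), all members of the ERK feedback, ERBB and RAS-RAF-MEK lists, up to 4 called members at either end of each other list, and the cell type markers. Others were chosen after their values were seen, among them Fosl1, Junb, Ier3, Klf6, Phlda1, Mki67, Ccna2, Id1, Id3, Timp1, the chaperone genes with an ERSE, and the genes given as not passing outside those lists. Members and lists were chosen with earlier results of these data known. Every named gene was also fitted with another pseudocount, filter, normalization, variance prior, choice of probe sets, set of arrays and a replicate block.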

Additional observations from a re-analysis of the deposited data

How the results depend on the processing

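The counts of 590 higher and 565 lower genes stayed within 1.5 times under another pseudocount, a stricter filter, quantile normalization, cyclic loess, a robust prior, the removal of probe sets that match several transcripts, the 3 compared arrays alone, and median centring over the genes tested (851 and 384, chosen after seeing the data). They moved further without the filter on signal (366 and 291), with median centring (1108 and 210), without the intensity trend (26 and 17) and when each gene's probe sets were averaged (266 and 177). Leaving out 1 treated array at a time gave 433 to 786 higher and 448 to 724 lower genes. The replicate block, with the replicate number as a term, gave 622 higher and 590 lower and kept 1006 of the 1155 calls. The numbers do not show a pairing, since the deviations of same-numbered vemurafenib and PLX7904 arrays correlated at -0.0071.

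Of 233 named genes that were called, 165 kept their call without the filter, 195 after quantile normalization, 192 with median centring, 29 without the trend, 111 with averaged probe sets, and 183 and 188 without vemurafenib replicate 1 and 2. With averaged probe sets 12 log2 differences turned sign: Jund (0.23), Pdia4 (-0.0618), Copa (-0.0162), Fanci (0.11), Sc5d (-0.38), Atp5c1 (-0.0939), Cast (-0.0907), Dnajc3 (-0.0355), Hspa4 (-0.37), Pafah1b1 (-0.30), Serpinb5 (-0.16) and Sub1 (-0.20). With less specific probe sets left out, 6 turned sign: Atp5c1 (-0.46), Fgfr1 (0.0697), Cast (-0.18), Pafah1b1 (-0.54), Serpinb5 (-0.30) and Sub1 (-0.69). These settings read other probe sets of the gene, and the cause was not tested. Over whole promoter windows, the shares with a motif moved to 18.6% (TTTGAA) and 8.72% (E2F) of lower genes, 34.0% of replication genes (E2F), and 65.9% and 45.5% of mitosis and kinetochore genes (TTTGAA). In the same windows all genes tested had 13.9% (TTTGAA) and 3.66% (E2F). The single DMSO array limits every difference: an error of that array shifts all calls for a gene and cannot be estimated.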

Other observations

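Probe sets of 1 gene can read different transcripts. The messages of the serine- and arginine-rich splicing factors are known to be spliced in alternative forms. In this family, probe sets of the same gene gave different results. The family was chosen after its values were seen. Its 9 genes had 31 probe sets tested, of which 5 were called lower, in 4 genes, and limma called 0 higher. For Srsf6, the brightest probe set read 8204 with DMSO and 9651 and 9326 with vemurafenib. Another read 4733 with DMSO and 3062 and 3578 with vemurafenib (log2 difference -0.52, adjusted p = 0.0186), and a further one 3274 against 2096 and 2530 (-0.51, adjusted p = 0.0339). For Srsf3, the probe set called lower read 1361 with DMSO and 921.8 and 933.6 with vemurafenib, while the PLX7904 arrays read 1456 and 1407. The brightest Srsf3 probe set did not pass (log2 difference -0.02, adjusted p = 0.908). Srsf1 (-0.74, adjusted p = 0.00464) and Srsf10 (-0.49, adjusted p = 0.038) each had 1 probe set called lower. That of Srsf1 read 1626 with DMSO, 940.3 and 1000 with vemurafenib, and 1371 and 1372 with PLX7904. That of Srsf10 read 1191 with DMSO, 845.6 and 851.9 with vemurafenib, and 771 and 801.7 with PLX7904. For Srsf10 the single DMSO array thus stood apart from all 4 treated arrays. The share of all probe sets called lower was 3.41%. What sets the probe sets of a gene apart was not tested.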
